A study of Mus musculus with 9 samples.

Results

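A set of 9 genes of secreted growth factor signalling, the ligands Tgfb1, Tgfb2, Tgfb3, Mstn and Inhba, the antagonist Fst and the matricellular genes Ccn1, Ccn2 and Ccn3, were followed in C2C12 cells, a mouse myoblast line that fuses into myotubes when serum is withdrawn. They were chosen by name and matched by Ensembl identifier, and 9 of 9 were found among the 47728 genes of each count file. The cells were knocked down for Fkbp4, knocked down for Fkbp5 or labelled control, with both target genes encoding Hsp90 co-chaperones of the FK506-binding protein family. Each genotype was collected at day 0, in growth medium with 10% fetal bovine serum, and at days 3 and 5 after a switch to 1% insulin-transferrin-selenium on day 0, giving 9 libraries with 1 per genotype and day. The method of knockdown is not given in the sources used here, and the control is labelled only as such. The labels also name a medium with HS for later medium changes.

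Transforming growth factor beta ligands, activins and myostatin are cut from larger precursors, and TGF-beta and myostatin are held latent by their propeptides. They bind pairs of serine-threonine kinase receptors that phosphorylate Smad2 and Smad3. In muscle cells these ligands hold back differentiation and growth. Follistatin, the product of Fst, binds activins and myostatin outside the cell and blocks them. CCN proteins sit in the matrix: Ccn1 (Cyr61) and Ccn2 (connective tissue growth factor) are classical targets of YAP with TEAD factors and of TGF-beta, while Ccn3 (Nov) has been described as opposing Ccn2 in some cells.

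Levels are given as CPM, read counts divided by library size, after scaling by TMM, a normalisation for differences in composition between libraries. Total counts ran from 3932372 to 5568486, so that 3 reads, the limit a count of 0 allows, equal 0.539 to 0.763 CPM. Intervals cover counting error only. Both knockdowns lowered their own target: Fkbp5 by a log2 fold change of −1.72 (edgeR adjusted p = 0.00842) and Fkbp4 by −2.28 (adjusted p = 1.97e-05). The Fkbp5 knockdown library of day 5 stood apart, with 10.06% mitochondrial reads against 1.78% to 5.01% in the other 8. The myoblast markers Myod1, Myf5 and Des were read in every library, the adipocyte markers Adipoq, Plin1 and Cidec and the endothelial marker Cdh5 had 0 reads in all 9, and the leukocyte marker Ptprc had 3 reads in all. Other members of those lists were read at low levels, with 20 reads of Fabp4 (at most 2.40 CPM, in the Fkbp5 knockdown at day 5), 86 of Cd68, 32 of Tek and 10 of Pecam1 over all libraries. Since there is 1 library per genotype and day, the edgeR quasi-likelihood test uses genotype and day as additive terms. A knockdown effect is thus the difference common to the 3 days, a day effect the change common to the 3 genotypes, and the spread behind each p is what these terms leave over, not the spread of repeated cultures. A gene was called at a Benjamini-Hochberg adjusted p under 0.05 over all 12844 genes tested. Of the 9 genes 8 passed the filter on low counts, and Mstn did not.

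**Figure D1:**
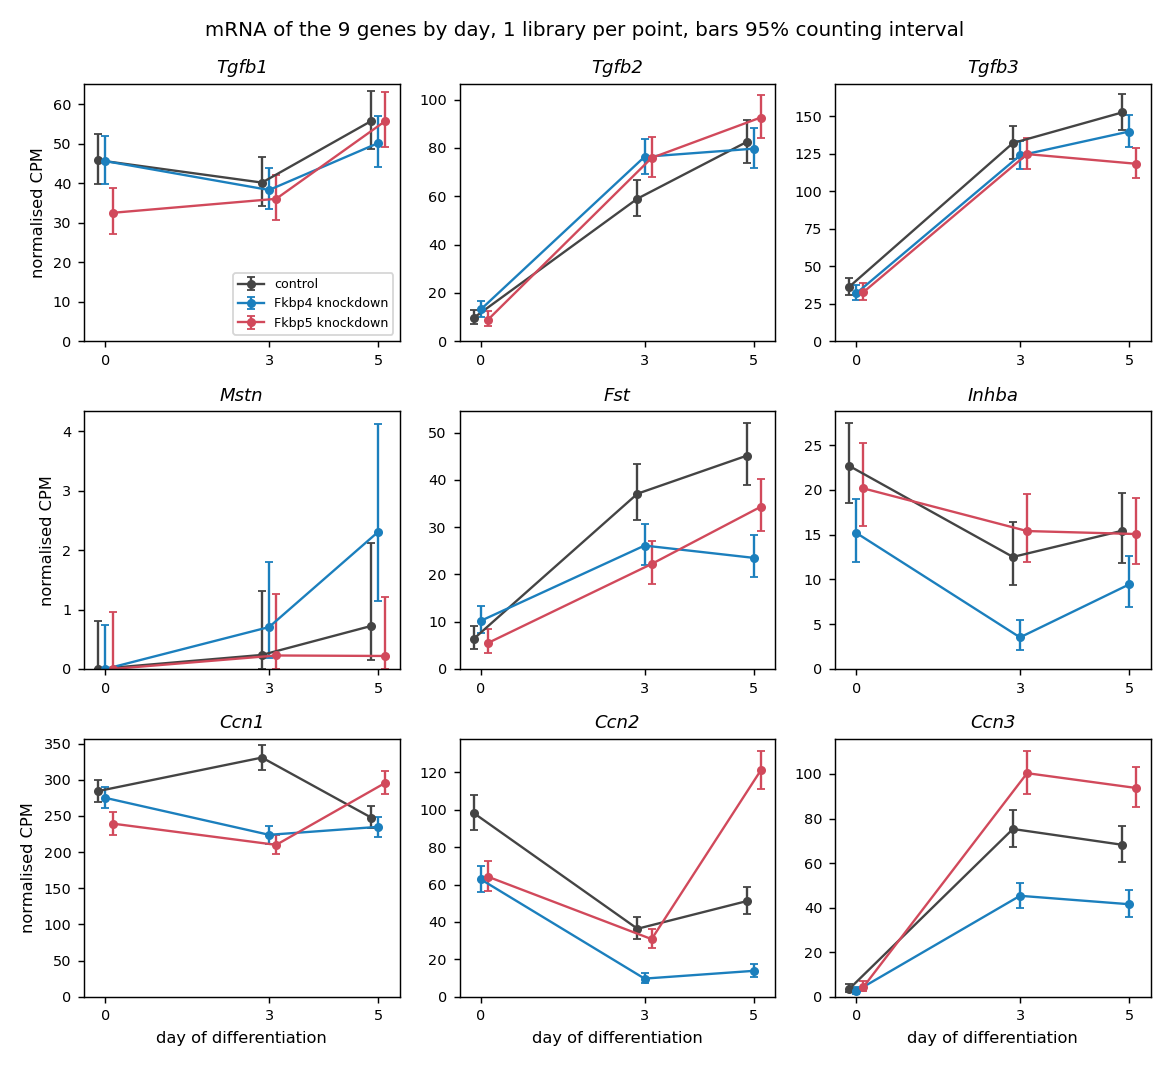
Normalised CPM (vertical axis, linear from 0) of the 9 genes at days 0, 3 and 5 (horizontal axis) in the control (grey), the Fkbp4 knockdown (blue) and the Fkbp5 knockdown (red); each point is 1 library and each bar its exact 95% counting interval. Tgfb2, Tgfb3, Fst and Ccn3 are higher at days 3 and 5 than at day 0 in all 3 genotypes. At day 5 Ccn2 stands at 13.8 CPM in the Fkbp4 knockdown, 51.1 in the control and 121 in the Fkbp5 knockdown.

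Between day 0 and day 3, 6 of the 8 genes tested changed; the switch of medium, the time in culture and differentiation cannot be told apart in this design. From day 0 to day 3, Tgfb2, Tgfb3, Fst and Ccn3 rose and Inhba and Ccn2 fell (edgeR, adjusted p under 0.05), where 52.2% of all genes tested were called in this comparison. By direction, 26.4% of all genes were higher and 25.8% lower. The median log2 fold change of the 8 genes tested was 0.91 against 0.0007 over all genes. From day 3 to day 5 only Tgfb1 was called, and it rose, against 6.16% of all genes (3.77% higher, 2.39% lower). From day 0 to day 5 the same 4 risers and Tgfb1 were called, all higher, against 57.9% of all genes (29.3% higher, 28.6% lower).

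The 3 TGF-beta isoforms behaved differently over the course. Tgfb1 (chromosome 7, 25687002 to 25705077 on GRCm38, ENSMUSG00000002603), the isoform best known from platelets and fibrosis, stood at 45.8, 40.1 and 55.7 CPM at days 0, 3 and 5 in the control. It stood at 45.6, 38.3 and 50.1 CPM in the Fkbp4 knockdown and at 32.5, 36.0 and 55.7 CPM in the Fkbp5 knockdown. The 9 values span 1.71-fold, and the day 5 library was the highest of each genotype. The change from day 0 to day 3 was −0.11 (SE 0.13, adjusted p = 0.482), and that from day 3 to day 5 was 0.50 (SE 0.13, adjusted p = 0.0418, edgeR). This call was lost with DESeq2 (0.50, adjusted p = 0.0801) and limma voom (0.49, 0.0547). It was also lost without the Fkbp4 knockdown library of day 3 (adjusted p = 0.144) or day 5 (0.0671), the Fkbp5 knockdown library of day 3 (0.0661) or day 5 (0.169), or the control library of day 0 (0.0696), day 3 (0.16) or day 5 (0.118). From day 0 to day 5 Tgfb1 rose by 0.39 (SE 0.13, adjusted p = 0.0218), a call lost with DESeq2 (adjusted p = 0.0583) and without the Fkbp5 knockdown library of day 0 (0.26, 0.0866) or day 5 (0.27, 0.119).

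Tgfb2 (chromosome 1, 186622792 to 186705989, ENSMUSG00000039239), an isoform whose latent form lacks the integrin-binding motif of the others, stood at 9.69, 59.0 and 82.4 CPM at days 0, 3 and 5 in the control. The Fkbp4 knockdown had 13.2, 76.3 and 79.7 CPM and the Fkbp5 knockdown 8.91, 75.9 and 92.6 CPM. Every day 3 and day 5 library lay above every day 0 library. The rise to day 3 was 6.55-fold (log2 2.71, SE 0.15, adjusted p = 3.09e-07), and the further change to day 5 was 0.28 (SE 0.12, adjusted p = 0.224). Tgfb3 (chromosome 12, 86056745 to 86079041, ENSMUSG00000021253), the isoform of palate and tendon development, went from 36.3 to 132 and 153 CPM in the control. It went from 32.0 to 124 and 139.9 CPM in the Fkbp4 knockdown and from 32.7 to 125 and 118 CPM in the Fkbp5 knockdown. The rise to day 3 was 3.78-fold (log2 1.92, SE 0.10, adjusted p = 1.72e-07), without overlap between day 0 and the later days.

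The mixture of isoforms differed between myoblasts and later cultures. Per kilobase of exon, so that genes of different length can be set side by side, the 3 isoforms together summed to 17.7 to 21.5 CPM per kilobase at day 0 and to 57.1 to 70.4 at days 3 and 5. Tgfb1 made up 42.3% of that sum in the control at day 0, 13.9% at day 3 and 15.7% at day 5. Its share ran from 36.5% to 43.5% over the 3 day 0 libraries and from 12.5% to 17.8% over the 6 later ones, with no overlap. Tgfb3 was the largest of the 3 in every library, at 45.5% to 54.8% at day 0 and 56.4% to 68.3% later. Tgfb2 moved from 7.78% to 10.97% at day 0 to 17.8% to 25.8% later. These shares are a description with no test. Exon length here counts every annotated exon of a gene, merged, whether or not the cells used it. It is 5042 bases for Tgfb1, 5791 for Tgfb2 and 3383 for Tgfb3. The shares, which isoform is largest and all comparisons per kilobase between genes depend on these lengths.

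The start regions of Tgfb1 and Tgfb2 are shown because the first changed little and the second rose in all genotypes. Both run from 250 bases before to 50 after the RefSeq start on GRCm38.p6, on the gene's strand, 5′ to 3′, with TATAAA and CAGAC, the core of the Smad binding motif, in capitals where a search of both strands found them.
Tgfb1 (chr7:25686752-25687051, plus strand): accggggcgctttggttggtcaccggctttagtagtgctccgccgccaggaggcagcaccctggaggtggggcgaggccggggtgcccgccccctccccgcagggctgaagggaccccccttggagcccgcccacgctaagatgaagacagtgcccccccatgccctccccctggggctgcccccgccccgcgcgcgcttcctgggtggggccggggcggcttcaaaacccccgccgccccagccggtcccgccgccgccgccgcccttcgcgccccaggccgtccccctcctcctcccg
Tgfb2 (chr1:186705940-186706239, minus strand): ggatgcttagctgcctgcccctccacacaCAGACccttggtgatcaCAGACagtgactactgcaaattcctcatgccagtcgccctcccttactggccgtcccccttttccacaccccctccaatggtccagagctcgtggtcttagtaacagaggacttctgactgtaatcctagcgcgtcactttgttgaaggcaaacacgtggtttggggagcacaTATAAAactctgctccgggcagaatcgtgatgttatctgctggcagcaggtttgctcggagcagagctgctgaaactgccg
The Tgfb1 window is 77.0% G and C and holds neither motif. The Tgfb2 window is 54.3% G and C, near the median of 52.7% over 32851 windows of the same length. It holds TATAAA starting 31 bases before the start, a motif found in 13.6% of all windows, and CAGAC starting at −221 and −204, found in 49.6%. Neither window holds the muscle E-box CAGCTG (16.3% of windows) or GGAATG, the core TEAD motif (14.7%). The Tgfb2 window holds 1 match to the looser CANNTG at −51, which includes CAGCTG and occurs in 72.3%. Windows were at hand for 5 of the 9 genes, the other 3 being Mstn, Inhba and Ccn1. All of these also hold TATAAA, at −29 in Mstn, −91 in Inhba and −25 in Ccn1. CAGAC is in those of Mstn (−244 and −120) and Ccn1 (at 4). Inhba fell to day 3 and Ccn1 had no called day change. A part of these motifs in any change was not tested.

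From day 0 to day 3 Fst rose and Inhba fell, and Mstn mRNA was scarce. Fst (chromosome 13, 114452290 to 114458951, ENSMUSG00000021765) stood at 6.38, 37.1 and 45.1 CPM in the control at days 0, 3 and 5. The Fkbp4 knockdown had 10.2, 26.1 and 23.5 CPM and the Fkbp5 knockdown 5.50, 22.2 and 34.3 CPM. The control was the highest of the 3 at both later days, and no later library fell to a day 0 level. The rise to day 3 was 3.73-fold (log2 1.90, SE 0.27, adjusted p = 0.000176), with 0.27 (SE 0.22, adjusted p = 0.526) from day 3 to day 5.

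Inhba (chromosome 13, 16011851 to 16031621, ENSMUSG00000041324), the beta A subunit that forms activin A, stood at 22.7, 12.5 and 15.4 CPM in the control. It stood at 15.2, 3.53 and 9.44 CPM in the Fkbp4 knockdown and at 20.2, 15.4 and 15.1 CPM in the Fkbp5 knockdown. The day 3 library of the Fkbp4 knockdown, with 20 reads, was the lowest of all, and the Fkbp5 knockdown changed least over the days. The fall from day 0 to day 3 was −0.999 (SE 0.26, adjusted p = 0.00825), and −0.65 (adjusted p = 0.0199) without the Fkbp4 knockdown library of day 3. The single libraries gave log2 ratios of −0.86 (−1.36 to −0.37) in the control and −2.11 (−2.90 to −1.38) in the Fkbp4 knockdown. In the Fkbp5 knockdown the interval included 0 (−0.39, −0.88 to 0.10). The change of Inhba from day 0 to day 5 was −0.56 (adjusted p = 0.0795). It was past the threshold without the Fkbp4 knockdown library of day 3 (adjusted p = 0.0151) or the Fkbp5 knockdown library of day 0 (0.0499).

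Mstn (chromosome 1, 53061640 to 53068079, ENSMUSG00000026100), the muscle-made ligand that limits muscle mass, had 0 reads in the 3 day 0 libraries and 21 reads in all. At days 3 and 5 the control had 1 and 3 reads, the Fkbp4 knockdown 4 and 11, and the Fkbp5 knockdown 1 and 1. The 11 reads equal 2.31 CPM (95% interval 1.15 to 4.13) and the 3 reads of the control of that day 0.723 CPM (0.149 to 2.11). The log2 ratio of these 2 libraries was 1.67 with an exact 95% interval from −0.25 to 4.15, so a difference from the control was not detectable at this depth. The Fkbp5 and Fkbp4 knockdown libraries of day 5 differed by −3.40 (interval −8.83 to −0.62, counting error only). The 30 bases around the TATA motif of Mstn (chr1:53061599-53061628, plus strand, GRCm38.p6) are shown as the counterpart of the Tgfb2 motif in the least abundant of the 9 genes.
Mstn TATA motif in capitals: tctaagttggaaTATAAAaagccacttgga

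Set per kilobase, Fst mRNA equalled 0.392 times the sum of Mstn and Inhba in the control at day 0, 3.95 times at day 3 and 3.66 times at day 5. The ratios were 0.934, 6.998 and 2.20 in the Fkbp4 knockdown and 0.380, 1.94 and 3.06 in the Fkbp5 knockdown. Every day 0 library was below 1 and every later library above it. The place of 1 depends on the merged exon lengths, 4589 bases for Fst and 6390 for Inhba. The 0.934 lies close to 1 and rests on 51 reads of Fst and 76 of Inhba, with no interval computed. The 6.998 rests on the 20 reads of Inhba named above. In the 2.20, the 11 reads of Mstn add 0.853 per kilobase to the 1.48 of Inhba. The ratio is one of mRNA levels and has no test.

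The 3 CCN genes took 3 different courses. Ccn1 (chromosome 3, 145646976 to 145649981, ENSMUSG00000028195) was the most abundant of the 9 per kilobase at each day, at 119 to 141 CPM per kilobase at day 0 and 116 to 146 at day 5. Its levels were 284, 331 and 248 CPM in the control, 275, 224 and 235 CPM in the Fkbp4 knockdown and 239, 210.0 and 296 CPM in the Fkbp5 knockdown. The 9 values span 1.57-fold with no common order of days. No day change was called, with −0.081 (SE 0.15, adjusted p = 0.684) to day 3 and 0.050 (SE 0.15, adjusted p = 0.887) from day 3 to day 5. The Ccn1 start region is shown for its TEAD motif, read on the opposite strand as CATTCC, because Ccn1 is a textbook target of those factors.
Ccn1 (chr3:145650071-145650100, minus strand, GRCm38.p6): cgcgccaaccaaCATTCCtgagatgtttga
The capitals mark the 6 bases that start 103 bases before the RefSeq start. It was the 1 of the 5 windows with this motif.

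Ccn2 (chromosome 10, 24595442 to 24598683, ENSMUSG00000019997) stood at 98.2, 36.4 and 51.1 CPM in the control at days 0, 3 and 5. The Fkbp4 knockdown had 62.7, 9.70 and 13.8 CPM, and the Fkbp5 knockdown 64.2, 30.8 and 121 CPM. Day 3 was the lowest day in every genotype, and the Fkbp5 knockdown was the 1 genotype in which day 5 exceeded day 0. The fall to day 3 was −1.76 (SE 0.44, adjusted p = 0.00624). From day 3 to day 5 the fit gave 1.17 (SE 0.44, adjusted p = 0.154), and 0.31 (adjusted p = 0.672) without the Fkbp5 knockdown library of day 5. The single libraries gave log2 ratios of 0.49 (0.19 to 0.80) in the control, 0.51 (−0.025 to 1.06) in the Fkbp4 knockdown and 1.97 (1.70 to 2.26) in the Fkbp5 knockdown, with exact 95% counting intervals. The change from day 0 to day 5 was −0.60 (adjusted p = 0.245). It was past the threshold without the Fkbp5 knockdown library of day 0 (−1.20, adjusted p = 0.0174) or of day 5 (−1.38, 0.00522). It was near 0 without the Fkbp4 knockdown library of day 0 (−0.046, adjusted p = 0.922) or of day 5 (−0.14, 0.795), and −0.33 (0.601) without the control library of day 5. An antisense gene, Gm15270, overlaps 665 exon bases of Ccn2 and had 10 reads in all libraries together, against 2182 for Ccn2. Since the strand setting is not given, whether Ccn2 lost reads there cannot be told. Antisense genes also overlap 420 exon bases of Tgfb3.

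Ccn3 (chromosome 15, 54745702 to 54754039, ENSMUSG00000037362) had the largest change from day 0 to day 3 of the 8 genes tested. It went from 3.52 to 75.3 and 68.2 CPM in the control, from 2.60 to 45.3 and 41.5 CPM in the Fkbp4 knockdown and from 4.45 to 100.3 and 93.7 CPM in the Fkbp5 knockdown. At both later days the order was Fkbp5 knockdown, control, Fkbp4 knockdown. The rise to day 3 was 20.5-fold (log2 4.35, SE 0.14, adjusted p = 2.21e-08), and from day 3 to day 5 it changed by −0.12 (SE 0.093, adjusted p = 0.49). The day 0 levels rest on 13 to 17 reads.

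**Figure D2:**
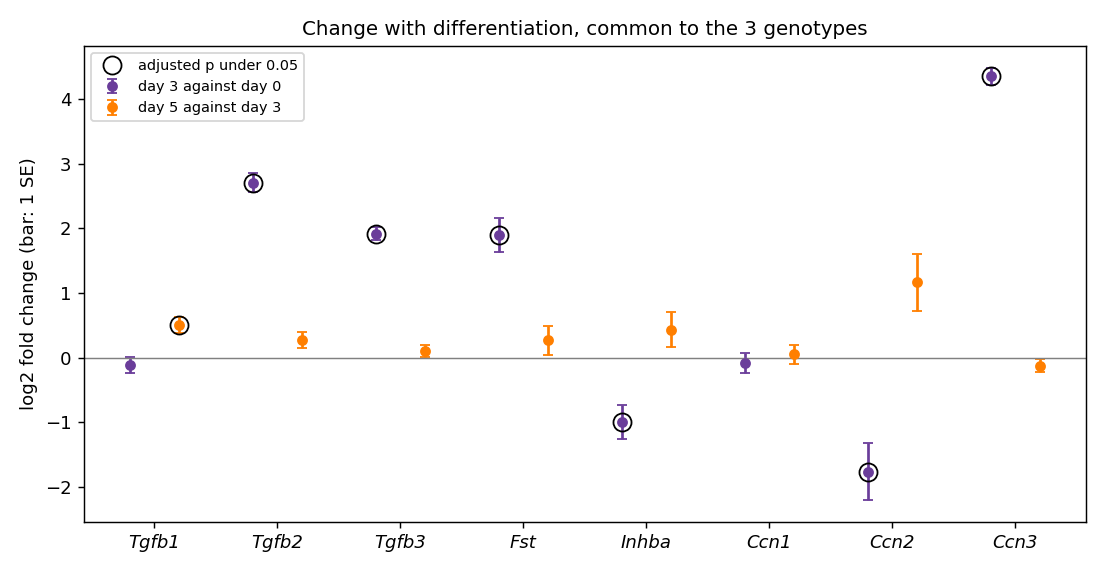
Log2 fold change (vertical axis, bars 1 SE) of the 8 genes tested, from day 0 to day 3 (purple) and from day 3 to day 5 (orange), common to the 3 genotypes; black circles mark an adjusted p under 0.05. Changes to day 3 run from −1.76 in Ccn2 to 4.35 in Ccn3, and Tgfb1 alone is circled from day 3 to day 5.

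The order of the 9 genes per kilobase therefore differed between days. Within a day the order also depends on the merged exon lengths. At day 0 the medians over the 3 genotypes ran from Ccn1 (136 CPM per kilobase) over Ccn2 (22.4), Tgfb3 (9.68), Tgfb1 (9.04) and Inhba (3.16) to Tgfb2 (1.67), Fst (1.39), Ccn3 (1.23) and Mstn (0). Of the neighbours in this order, Tgfb2 and Fst overlapped in their ranges over genotypes, as did Fst and Ccn3. At day 5 the order of medians was Ccn1 (123), Tgfb3 (41.4), Ccn3 (23.8), Ccn2 (17.9), Tgfb2 (14.2), Tgfb1 (11.05), Fst (7.47), Inhba (2.36) and Mstn (0.267). There the range of Ccn2, from 4.84 to 42.3, covered those of Ccn3 (14.5 to 32.7), Tgfb2 (13.8 to 16.0), Tgfb1 and Fst and reached that of Tgfb3 (34.99 to 45.1). Among Tgfb2, Tgfb1, Fst, Inhba and Mstn no neighbours overlapped.

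Calls between the genotypes concerned Ccn3, Ccn2 and Inhba. In the Fkbp4 knockdown Ccn3 was lower than in the control and was the 1 of 8 genes called, against 1.09% of all genes tested (0.265% higher, 0.825% lower). In the Fkbp5 knockdown 0 of 8 were called by edgeR, against 2.09% of all genes (0.685% higher, 1.4% lower). An unadjusted p under 0.05 was reached by 1 of them, Ccn3, and by 2027 of all 12844 genes, and DESeq2 and limma voom also called 0. Both comparisons share the 3 control libraries. Compared directly, Ccn3, Ccn2 and Inhba were higher in the Fkbp5 than in the Fkbp4 knockdown, 3 of 8 against 12.8% of all genes (6.83% higher, 6.02% lower).

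Ccn3 was 1.62-fold lower in the Fkbp4 knockdown than in the control (log2 −0.70, SE 0.11, adjusted p = 0.02, edgeR). At days 0, 3 and 5 the single libraries gave log2 ratios of −0.44 (−1.62 to 0.71), −0.73 (−0.98 to −0.49) and −0.72 (−0.99 to −0.45). The call was lost without the Fkbp4 knockdown library of day 3 (adjusted p = 0.16) or day 5 (0.156), without the control library of day 0 (0.0636), day 3 (0.194) or day 5 (0.1), and without the day term (1.0). The value itself stayed between −0.71 and −0.67 in all of these. The Fkbp5 knockdown stood at 0.43 (SE 0.11, adjusted p = 0.0759) against the control for Ccn3. The direct difference between the knockdowns was 2.18-fold (log2 1.13, SE 0.11, adjusted p = 0.000592), with daily ratios of 1.71-fold, 2.21-fold and 2.26-fold. The day 0 ratio compares 17 with 13 reads, and its log2 interval included 0 (−0.35 to 1.94). The difference over the 3 days was past the threshold in all 13 alternatives, with values from 1.09 to 1.14.

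Ccn2 was 8.74-fold higher in the Fkbp5 than in the Fkbp4 knockdown at day 5 and 3.18-fold higher at day 3, and the 2 libraries differed by 1.02-fold at day 0. Over the 3 days the difference was 1.52 (SE 0.44, adjusted p = 0.0481). This call was lost with DESeq2 (1.63, adjusted p = 0.0755) and without either Fkbp4 knockdown library of day 3 (1.39, 0.129) or day 5 (0.99, 0.21), the Fkbp5 knockdown library of day 3 (1.60, 0.066) or day 5 (0.78, 0.199), or any control library (adjusted p = 0.0716, 0.0581 and 0.064 for days 0, 3 and 5). The difference was 2.30 without the Fkbp4 knockdown library of day 0 and 2.16 without the Fkbp5 knockdown library of day 0. Against the control, Ccn2 in the Fkbp4 knockdown was at −0.65 (−0.86 to −0.43) on day 0, −1.91 (−2.38 to −1.45) on day 3 and −1.88 (−2.31 to −1.48) on day 5. The fit over days gave −1.26 (SE 0.44, adjusted p = 0.202), and −2.14 (adjusted p = 0.0461) without the Fkbp4 knockdown library of day 0. In the Fkbp5 knockdown the daily ratios were −0.61 (−0.84 to −0.39), −0.24 (−0.58 to 0.10) and 1.24 (1.01 to 1.48). These intervals compare 1 library with 1 library, and a change of the effect between day 0 and the later days was not called (edgeR adjusted p = 0.962). That test pools days 3 and 5, so a change at day 5 alone was not tested. The common value was 0.26 (SE 0.42, adjusted p = 0.823), and −0.54 (adjusted p = 0.568) without the Fkbp5 knockdown library of day 5, the one with the high mitochondrial share, whose part in this value was not tested.

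Inhba differed between the knockdowns by 0.95 (SE 0.27, adjusted p = 0.0407), with daily ratios of 1.33-fold, 4.37-fold and 1.60-fold. On the log2 scale the interval at day 0 included 0 (−0.067 to 0.89), and those at day 3 (1.39 to 2.93) and day 5 (0.11 to 1.25) did not. The call was lost without the Fkbp4 knockdown library of day 3 (0.59, adjusted p = 0.0931) or day 5 (1.07, 0.0875), the Fkbp5 knockdown library of day 3 (0.69, 0.0982) or day 5 (1.03, 0.112), or the control library of day 0 (0.0628), day 3 (0.0589) or day 5 (0.0552). Against the control, Inhba in the Fkbp4 knockdown was at −0.91 (SE 0.27, adjusted p = 0.14), lower at each day, and in the Fkbp5 knockdown at 0.038 (SE 0.25, adjusted p = 0.967).

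**Figure D3:**
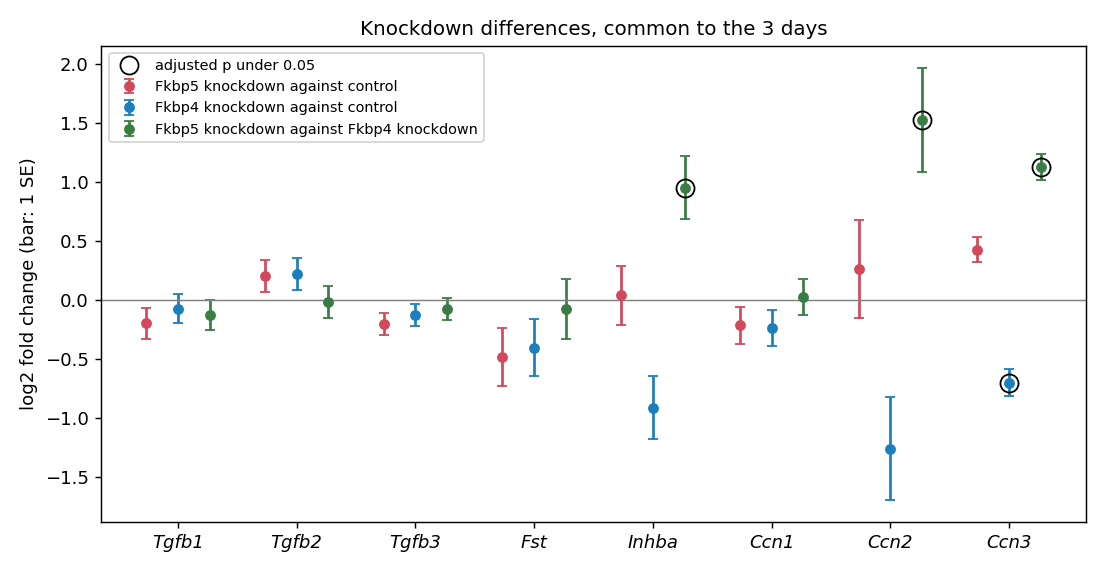
Log2 fold change (vertical axis, bars 1 SE) of the 8 genes tested in the Fkbp5 knockdown against control (red), the Fkbp4 knockdown against control (blue) and the Fkbp5 against the Fkbp4 knockdown (green), common to the 3 days; black circles mark an adjusted p under 0.05. Inhba, Ccn2 and Ccn3 are circled between the knockdowns and Ccn3 in the Fkbp4 knockdown, while the 3 TGF-beta isoforms lie between −0.20 and 0.22.

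The other genes did not pass in any knockdown comparison. For Fst the Fkbp5 knockdown stood at −0.48 (SE 0.25, adjusted p = 0.375) and the Fkbp4 knockdown at −0.41 (SE 0.24, adjusted p = 0.441). Its daily ratios to the control were −0.22, −0.74 and −0.39 in the former and 0.67, −0.51 and −0.94 in the latter, where the day 0 interval included 0 (−0.010 to 1.39) and the later intervals did not. Tgfb2 was at 0.20 (SE 0.14, adjusted p = 0.535) and 0.22 (SE 0.14, 0.463), Tgfb3 at −0.20 (SE 0.096, 0.336) and −0.13 (SE 0.094, 0.538), and Tgfb1 at −0.20 (SE 0.13, 0.496) and −0.075 (SE 0.12, 0.811) in the Fkbp5 and Fkbp4 knockdowns. Ccn1 was at −0.22 (SE 0.15, adjusted p = 0.552) and −0.24 (SE 0.15, 0.47). At day 3 its libraries lay below the control in both knockdowns, at −0.66 (−0.78 to −0.53) and −0.56 (−0.67 to −0.45), and at day 5 above it in the Fkbp5 knockdown (0.25, 0.14 to 0.37). Both day 3 ratios share 1 control library, which had the highest Ccn1 level of all, 331 CPM. Without that library the fits over days gave −0.026 in the Fkbp5 and −0.038 in the Fkbp4 knockdown.

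Whether a knockdown effect differed between day 0 and the later days was tested as an interaction over 13372 genes. Mstn passed the count filter of this fit but is given no value, since it had no read at day 0. Of the other 8 genes 0 were called for either knockdown by edgeR, against 0.0374% of all genes for each (0.0224% higher, 0.015% lower). An unadjusted p under 0.05 was reached by 1 gene for each knockdown, and by 604 (Fkbp5) and 396 (Fkbp4) of all 13372 genes. These were Ccn2 in the Fkbp5 knockdown (1.23, SE 0.51, edgeR adjusted p = 0.962) and Fst in the Fkbp4 knockdown (−1.33, SE 0.43, edgeR adjusted p = 1). Ccn2 in the Fkbp4 knockdown was at −1.22 (adjusted p = 1). This test has 2 residual degrees of freedom.

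**Figure D4:**
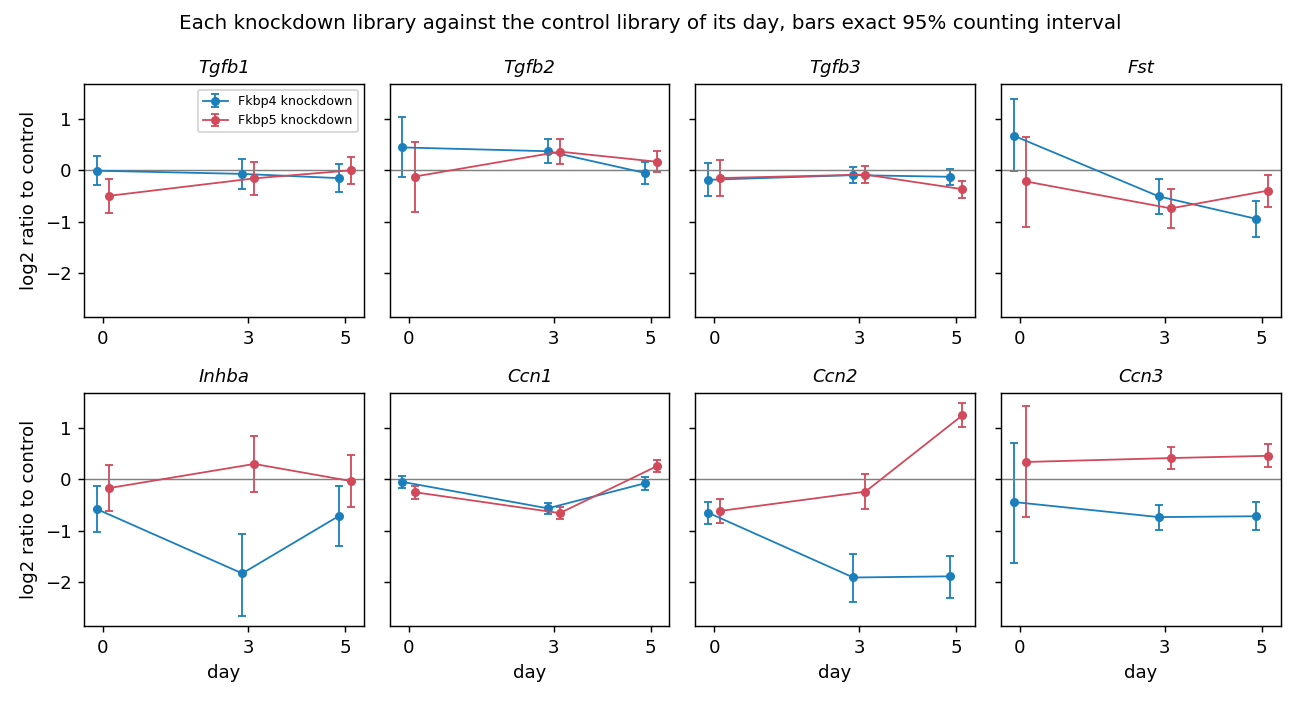
Log2 ratio (vertical axis) of each knockdown library to the control library of its day (horizontal axis, days 0, 3 and 5) for the 8 genes tested, Fkbp4 knockdown in blue and Fkbp5 knockdown in red; bars are exact 95% counting intervals of 2 libraries. Ccn2 in the Fkbp5 knockdown goes from −0.61 to 1.24, and Ccn3 stays above 0 in the Fkbp5 and below 0 in the Fkbp4 knockdown. The day 0 intervals of Ccn3 include 0 in both (−0.74 to 1.42 and −1.62 to 0.71).

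The other genes of these pathways were read from lists, given by counts and medians. Their counts for day 3 against day 0 stand beside 26.4% of all genes higher and 25.8% lower, and no list was tested as a set. Among receptors, 4 of 10 tested (14 listed) rose to day 3 and 1 fell. The type II receptor Tgfbr2, which binds the TGF-beta ligands first, rose by 1.96 (SE 0.15, adjusted p = 1.89e-06) and Bmpr2 by 0.68 (SE 0.13), while the co-receptor Tgfbr3 (betaglycan) fell by 1.002 (SE 0.30). Of 14 Smads and partners tested, 3 rose and 2 fell. Smad3, the signal carrier of TGF-beta and activin, rose (1.13, SE 0.091, adjusted p = 3.29e-06) and Smad7, its inhibitor, fell by 1.86 (SE 0.17, adjusted p = 6.65e-06). Of 5 other ligands tested (25 listed), Gdf11, the closest relative of myostatin, rose (0.93, SE 0.12, adjusted p = 0.000104), while Inhbb (−1.49, SE 0.25), Bmp4 (−1.45, SE 0.29) and Gdf15 (−0.51, SE 0.15) fell.

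Of 11 antagonists outside the cell that were tested, 6 rose and 2 fell to day 3, with a median of 0.66. Decorin (Dcn), a proteoglycan that binds TGF-beta and myostatin, rose by 4.73 (SE 0.21, adjusted p = 5.77e-08) and the BMP antagonist Chrd by 2.79 (SE 0.17). Grem1, another BMP antagonist, fell by 4.99 (SE 0.22, adjusted p = 7.84e-08). Of 17 genes for latency and activation 6 rose and 6 fell. The integrin Itgb6, whose dimer with Itgav frees latent TGF-beta, rose (1.95, SE 0.18), as did the microfibril protein Fbn1 (1.76, SE 0.20), and the latent binding proteins Ltbp2 (−1.88, SE 0.19) and Ltbp1 (−1.80, SE 0.11) fell.

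Target genes did not move one way. Of 19 TGF-beta targets tested 8 rose and 5 fell to day 3, with a median of −0.065. Some lists share genes, so their counts are not separate. Smad7, Skil and Ltbp2 of the lists above, and Tagln and Acta2 of the SRF targets, are also listed as TGF-beta targets. Periostin (Postn) rose by 3.84 (SE 0.28) and Col1a1 by 1.55 (SE 0.17), whereas Lox, the lysyl oxidase that crosslinks collagen, fell by 1.12 (SE 0.17, adjusted p = 0.000296). Of 9 BMP targets 6 fell and 1 rose, with a median of −1.72; the Id proteins Id3 (−2.92, SE 0.16), Id2 (−2.21, SE 0.16) and Id1 (−1.72, SE 0.15), which hold back myogenic factors, were among them, and the Notch and BMP target Hey1 rose (2.06, SE 0.15). Of 16 YAP and TEAD targets, a list that includes Tgfb2, 3 rose and 5 fell. Crim1 (−3.73, SE 0.31) and the receptor kinase Axl (−1.003, SE 0.10) fell, and Ccdc80 rose by 1.73 (SE 0.12). Of 17 genes for YAP, TEAD factors and Hippo kinases 9 rose and 2 fell, with Tead4 (1.73, SE 0.13) and its cofactors Vgll2 (1.70, SE 0.15) and Vgll3 (1.53, SE 0.12) among the risers. Of 15 SRF targets 6 rose and 5 fell, led by skeletal actin Acta1 (5.44, SE 0.28). Of the other CCN genes 2 of 3 were tested, and Ccn4 (Wisp1) rose by 0.98 (SE 0.12).

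Against the control, 2.09% of all genes tested were called in the Fkbp5 knockdown and 1.09% in the Fkbp4 knockdown. These shares are the background for the list counts in the knockdowns that follow. In the Fkbp5 knockdown Col1a1 was the 1 higher of 19 TGF-beta targets (0.85, SE 0.16, adjusted p = 0.0296) and Tead4 the 1 lower of 17 in the YAP and TEAD list (−0.75, SE 0.12, adjusted p = 0.014). In the Fkbp4 knockdown Postn was the 1 lower of 19 TGF-beta targets (−1.07, SE 0.21, adjusted p = 0.0412) and Vgll2 the 1 higher of 17 (0.87, SE 0.14, adjusted p = 0.0231). None of the other lists of these pathways had a called gene by edgeR in either comparison.

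Of 19 TGF-beta targets, 5 were higher and 0 lower in the Fkbp5 than in the Fkbp4 knockdown, with a median of 0.48 against −0.0073 over all genes. Of all genes 6.83% were higher and 6.02% lower in this comparison, the background for each list count that follows. The 5 were led by Postn (1.49, SE 0.20), Col1a1 (1.28, SE 0.17), Ldlrad4 (1.14, SE 0.17) and Col1a2 (0.74, SE 0.11). Of 11 antagonists 4 were higher, among them Dcn (1.07, SE 0.18), the follistatin-like genes Fstl1 (0.86, SE 0.15) and Fstl3 (0.85, SE 0.21), and Twsg1 (0.50, SE 0.11), and 1 was lower. Of 17 latency genes 4 were higher, led by Fbn1 (0.88, SE 0.20) and Thbs2 (0.71, SE 0.14), and Thbs1, an activator of latent TGF-beta, was lower (−0.63, SE 0.13). Of 17 genes for YAP, TEAD factors and Hippo kinases 6 were lower and 0 higher, led by Vgll2 (−0.76, SE 0.14) and Tead4 (−0.63, SE 0.12). Of 15 SRF targets 5 were lower and 0 higher, led by Acta1 (−0.93, SE 0.24). Of 16 YAP and TEAD targets 2 were higher and 3 lower. The receptor Acvr1b, through which activins and myostatin signal, was lower (−1.08, SE 0.25), as was Smad3 (−0.35, SE 0.090). Of 9 BMP targets and 5 other ligands 0 were called by edgeR.

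Cell state markers moved in the same comparison. The 8 myoblast and myotube markers summed to 4529 and 6709 CPM in the Fkbp5 knockdown at days 3 and 5. These sums were 6818 and 9618 CPM in the Fkbp4 knockdown and 5608 and 8486 CPM in the control. Actc1 (−1.88, SE 0.21), Myh3 (−1.36, SE 0.24) and Ckm (−1.34, SE 0.13) were the 3 of 7 tested that were lower in the Fkbp5 than in the Fkbp4 knockdown. Ckm (−1.10, SE 0.14) and Actc1 (−1.03, SE 0.20) were also lower when the Fkbp5 knockdown was set against control. Des (107962 reads over all libraries) and Myh3 (59854) carried most of the myoblast and myotube sums. The 5 fibroblast and progenitor markers summed to 344, 902 and 1185 CPM at days 0, 3 and 5 in the Fkbp5 knockdown. Their sums were 184, 575 and 653 CPM in the Fkbp4 knockdown and 263, 849 and 738 CPM in the control. They rose from day 0 to day 3 in every genotype, as the myoblast and myotube sums did. Dpt (1.31, SE 0.28) and Ly6a (0.80, SE 0.13) were the 2 of 4 tested that were higher in the Fkbp5 than in the Fkbp4 knockdown. Ly6a carried most of the fibroblast and progenitor sums, with 24357 reads over all 9 libraries against 1133 of Dpt, 288 of Pdgfra and 90 of Lum. Thy1 of that list had 1 read in all 9 libraries. The part of these markers in the differences of Ccn3, Ccn2 and Inhba was not tested. In cultures measured as a whole, fewer cells of a kind and less RNA per cell cannot be told apart.

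**Figure D5:**
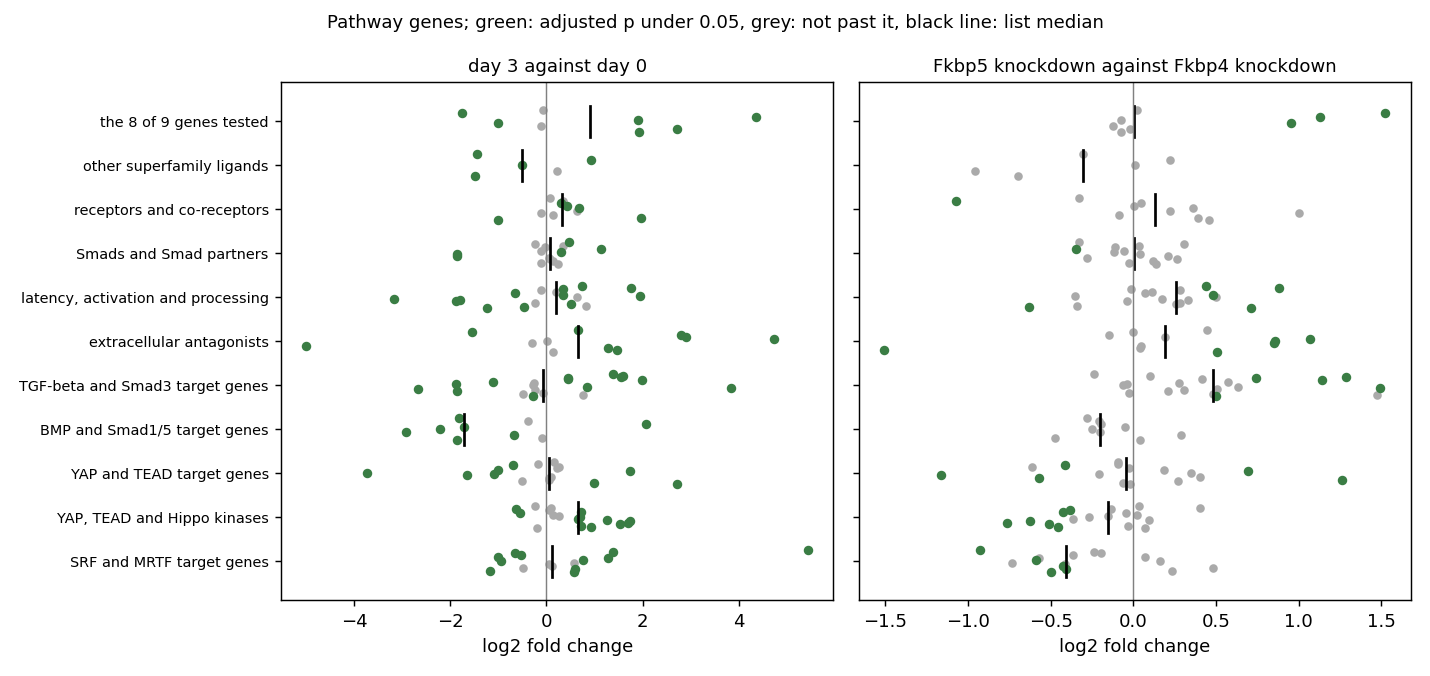
Log2 fold change (horizontal axes) of each tested gene of the 9 and of 10 pathway lists (rows), from day 0 to day 3 on the left and between the Fkbp5 and the Fkbp4 knockdown on the right; green points have an adjusted p under 0.05, grey points do not, and black lines are list medians. The BMP target median lies at −1.72 on the left and the TGF-beta target median at 0.48 on the right.

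The genes most like each of the 8 over the 9 libraries were found by Pearson's r of log2 CPM among 10888 genes with a mean of at least 5 CPM, as a description. The 9 libraries share the days, so a likeness can rest on a step from day 0 to day 3 that many genes show; Tgfb1 and Ccn1 had no called step. Tgfb2 was closest to Tmem64 and the taurine transporter Slc6a6 (both r = 0.997), Tgfb3 to the bHLH factor Arnt (0.997) and Cand2 (0.996), Ccn3 to Coro2b (0.992) and Dcn (0.991), and Fst to Bckdha (0.982) and the Wnt receptor Fzd2 (0.981). Ccn2 was closest to Medag (0.956) and the myosin Myo1d (0.949), and Inhba to Igfbp7 (0.944) and the TNF receptor Tnfrsf1b (0.94). Tgfb1 (Enpp4, 0.932, and Bid, 0.92) and Ccn1 (Mrpl23, 0.914, and Seh1l, 0.888) had less close partners. Among the 8 themselves, Tgfb2 and Tgfb3 (0.977), Ccn3 and Tgfb3 (0.964), Ccn3 and Tgfb2 (0.958) and Fst and Tgfb2 (0.943) ran together, as did Ccn2 and Inhba (0.843), while Ccn2 and Ccn3 were at −0.36.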

How the data were processed

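The values deposited by the authors are counts, whole reads assigned to each Ensembl identifier, with 1 file per library. Per the submitters' processing notes, CASAVA 1.8, HISAT2 2.0.2, Subread and featureCounts 1.4.6 were used with build mm10; the annotation release, strand setting and handling of multiply aligned reads are not given in the sources used here. PolyA RNA libraries were made with TruSeq RNA v2, per the labels' protocols. Symbols, positions and exon lengths came from GENCODE M21 (GRCm38), which matched 47309 of 47728 identifiers. Of the members, Ccn2 had 19.7% of its 31-base exon words also present elsewhere in the annotation, Tgfb3 9.96%, and the other 7 at most 2.34%.

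Counts were analysed with edgeR 4.0.16 in R 4.3.3: filterByExpr (12844 genes), TMM (factors 0.942 to 1.037), and glmQLFit with genotype and day as additive terms (4 residual degrees of freedom), fitted on all genes and libraries. Interactions with days 3 and 5 used 13372 genes. Standard errors were derived from the F statistic of each contrast. Alternatives were RLE size factors, no low-count filter, DESeq2 1.42.0, limma 3.58.1 voom, no day term and each library left out. Scripts were tested on simulated data. Named were the 9 genes in every comparison, called genes of each list (mean at least 5 CPM, at most 4 per direction with the largest change) and the 2 genes most like each member. The members and lists were chosen with earlier results of these data known. Promoter windows are RefSeq's, on GRCm38.p6. The values of 1 gene named by this rule are not reported here.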

Additional observations from a re-analysis of the deposited data

How the results depend on the processing

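Of the 8 genes tested, 6 were called from day 0 to day 3 in every library left out. With 1 library left out, the number called ranged from 0 to 2 in the Fkbp4 knockdown, from 1 to 3 between the knockdowns, from 0 to 1 from day 3 to day 5 and from 5 to 6 from day 0 to day 5, and was 0 throughout in the Fkbp5 knockdown. Without the low-count filter it was 3 in the Fkbp4 knockdown (with Inhba and Ccn2), 2 from day 3 to day 5 (with Ccn2), 8 from day 0 to day 5 (with Mstn, Inhba and Ccn2) and 1, Ccn2, for either interaction. It was 0 in the Fkbp4 knockdown without the day term and 0 from day 3 to day 5 with DESeq2 and with limma voom; the cause was not tested. No call at RLE size factors differed.

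Signs turned only for values that were not called. In the Fkbp5 knockdown Inhba was −0.0067 with limma voom and −0.0001 without the day term, and −0.245 to 0.23 with a library left out; Ccn2 ran from −0.54 to 0.82 there. Tgfb1 in the Fkbp4 knockdown ran from −0.16 to 0.017. Between the knockdowns limma voom gave 0.028 for Tgfb2 and 0.038 for Fst. With a library left out this difference ran from −0.26 to 0.012 for Tgfb1, −0.19 to 0.064 for Tgfb2, −0.15 to 0.019 for Tgfb3, −0.44 to 0.17 for Fst and −0.19 to 0.15 for Ccn1. Ccn1 ran from −0.27 to 0.069 to day 3, −0.15 to 0.24 from day 3 to day 5 and −0.24 to 0.14 from day 0 to day 5. Over all genes, the Fkbp5 knockdown had 268 calls, 866 without the low-count filter, 3 without the day term and 40 (without its day 5 library) to 296 with a library left out. The Fkbp4 knockdown had 140, against 690, 0 and 4 (without the control of day 3) to 259, and 224 with DESeq2. Between the knockdowns there were 1650, 1094 with DESeq2 and 487 to 2106 with a library left out. From day 3 to day 5 there were 791, 1578 without the filter and 232 to 924 with a library left out. Each interaction had 5, and without the filter 107 (Fkbp5) and 95 (Fkbp4). No paired analysis was possible because the labels give no replicate numbers; the day term already compares genotypes within a day, and without it the Ccn3 call in the Fkbp4 knockdown was lost. Genes with under about 20 reads in a library, Mstn at all days and Ccn3 at day 0, are limited by depth.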
